A study of Homo sapiens with 2 samples.

Results

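Peaks of H3K27ac that spanned 2000 bp or more in an ERG library of F36P cells were described here, together with the Vector-library peaks beneath them. H3K27ac is histone H3 acetylated at lysine 27. There were 295 such peaks among the 18973 ERG-library peaks on chromosomes 1 to 22, X and Y, or 1.55%. They are called broad peaks below. They were chosen by their width in the ERG library, the end of the peak minus its start in the authors' deposited list. That width, and every other value of the ERG library at these peaks, is therefore a description and not a finding. F36P is an established human erythroid leukaemia cell line. The ERG library came from F36P cells transduced with MSCV-PIG-AM-ERG, labelled as ERG overexpression, and the Vector library from cells transduced with MSCV-PIG, labelled WT. What AM stands for was not established here. Puromycin at 1 µg/ml had been given to both cultures over 4 days. ERG is an ETS-family transcription factor, and the series asks how it inhibits erythroid differentiation. Each group held 1 library of 1 cell line, so no test between groups was made, no replicate check was possible, and every difference compares these libraries and not the conditions.

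Acetylation of H3 at lysine 27 is placed by the acetyltransferases EP300 and CREBBP on nucleosomes beside active promoters and enhancers, and is removed by histone deacetylases. An active promoter usually has a nucleosome-poor gap at the start site, with acetylated nucleosomes on both sides of it. Unusually long stretches of the mark are known to occur at genes that are strongly transcribed or that define the identity of a cell, such as lineage transcription factors in blood cells.

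The ERG library held 19671 peaks over 15.0 Mb in all and the Vector library 9161 over 5.30 Mb. The ERG library was also the deeper one, with a genome background of 2.31 fragments against 1.60 in the Vector library, a ratio of 1.44. The part of this depth in the widths was not tested. Of the markers listed for erythroid cells, 8 of 9 had an ERG-library peak and 7 of 9 a Vector-library peak within 1 kb of a start, against 2 and 1 of 5 myeloid markers. Over all 20037 coding genes, 46.5% had such an ERG-library peak and 31.4% such a Vector-library peak. The myeloid counts are near those shares. Of 4 megakaryocyte markers 1 had a peak in each library, and 1 of 4 lymphoid markers had an ERG-library peak, against 0 of 4 with a Vector-library peak. Neither library had a peak at the 2 fibroblast or the 2 epithelial markers.

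The promoters of broad peaks ranged from very CpG-rich to CpG-poor, and 7 are shown to make that range visible. Each runs from 250 bases before to 50 bases after a start site under the peak, read 5′ to 3′ along the gene, and comes from RefSeq (GRCh38.p14). FOXO3 lies under the widest broad peak of all. STAT5B and STAT5A are neighbours that both had a broad peak, though their promoters differ sharply in CpG content. TAL1 and LYL1 belong to the core transcription factors of blood stem cells. NIF3L1 has the longer ETS motif and a broad peak that fell into separate peaks in the Vector library. BCL11A had a broad peak without any Vector-library peak. Capitals mark motifs on either strand. The GC box is GGGCGG and the GATA motif AGATAA. The ETS motif is CCGGAAGT, which the longer ACCGGAAGT contains. The CCAAT box and the TATA box were also searched for, and none of the 7 promoters holds them.
FOXO3 (chr6:108559575-108559874, plus strand): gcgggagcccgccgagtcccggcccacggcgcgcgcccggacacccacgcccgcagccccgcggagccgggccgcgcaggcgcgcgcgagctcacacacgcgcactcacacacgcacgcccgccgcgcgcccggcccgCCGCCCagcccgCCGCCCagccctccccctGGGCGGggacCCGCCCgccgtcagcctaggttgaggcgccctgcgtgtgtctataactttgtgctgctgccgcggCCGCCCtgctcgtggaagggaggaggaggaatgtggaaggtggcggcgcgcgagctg
STAT5B (chr17:42276342-42276641, minus strand): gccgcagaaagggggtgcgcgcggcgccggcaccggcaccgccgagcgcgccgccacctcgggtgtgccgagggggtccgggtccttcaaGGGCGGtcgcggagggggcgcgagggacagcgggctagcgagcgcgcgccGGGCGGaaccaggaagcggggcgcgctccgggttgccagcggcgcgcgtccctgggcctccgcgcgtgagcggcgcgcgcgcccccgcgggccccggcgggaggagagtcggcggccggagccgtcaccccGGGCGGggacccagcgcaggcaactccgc
STAT5A (chr17:42287297-42287596, plus strand): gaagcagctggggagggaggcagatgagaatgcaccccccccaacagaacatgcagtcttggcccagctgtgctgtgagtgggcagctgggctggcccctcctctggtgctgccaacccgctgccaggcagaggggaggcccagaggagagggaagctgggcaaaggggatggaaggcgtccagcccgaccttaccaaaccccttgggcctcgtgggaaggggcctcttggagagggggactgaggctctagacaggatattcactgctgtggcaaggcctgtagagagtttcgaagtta
TAL1 (chr1:47231666-47231965, minus strand): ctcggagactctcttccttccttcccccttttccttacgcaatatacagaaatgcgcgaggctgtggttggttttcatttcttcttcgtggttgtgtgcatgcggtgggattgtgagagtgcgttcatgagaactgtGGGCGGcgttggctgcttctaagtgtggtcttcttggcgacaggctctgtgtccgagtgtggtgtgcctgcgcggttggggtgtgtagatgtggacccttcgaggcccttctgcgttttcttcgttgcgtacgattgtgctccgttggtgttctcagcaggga
LYL1 (chr19:13102809-13103108, minus strand): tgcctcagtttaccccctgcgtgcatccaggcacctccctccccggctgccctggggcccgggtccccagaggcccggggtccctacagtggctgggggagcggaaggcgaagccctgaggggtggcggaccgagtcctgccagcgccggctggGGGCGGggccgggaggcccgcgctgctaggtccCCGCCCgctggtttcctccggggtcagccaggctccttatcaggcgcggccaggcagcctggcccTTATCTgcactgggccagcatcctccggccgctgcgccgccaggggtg
NIF3L1 (chr2:200889077-200889376, plus strand): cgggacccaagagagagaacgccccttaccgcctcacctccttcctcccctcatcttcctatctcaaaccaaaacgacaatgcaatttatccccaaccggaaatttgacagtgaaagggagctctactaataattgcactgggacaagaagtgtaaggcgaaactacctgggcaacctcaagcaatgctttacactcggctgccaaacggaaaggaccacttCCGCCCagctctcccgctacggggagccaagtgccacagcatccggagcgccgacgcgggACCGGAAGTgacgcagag
BCL11A (chr2:60550858-60551157, minus strand): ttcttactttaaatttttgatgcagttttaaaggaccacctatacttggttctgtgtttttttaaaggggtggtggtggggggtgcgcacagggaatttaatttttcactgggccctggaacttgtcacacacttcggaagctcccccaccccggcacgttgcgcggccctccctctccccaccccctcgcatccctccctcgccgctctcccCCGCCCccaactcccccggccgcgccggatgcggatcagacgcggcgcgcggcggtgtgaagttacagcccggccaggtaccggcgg

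The promoter of STAT5B holds 55 CpG dinucleotides and that of STAT5A 5, and the promoter of FOXO3 holds 47. The GC box appears in 6 of the 7, and the STAT5A promoter holds none of the motifs. LYL1 and NIF3L1 are the members shown with a GATA and an ETS motif.

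Over all 184 genes with a listed start inside a broad peak, promoters were GC-rich. Their median GC content was 69.7% (quartiles 61.9 to 74.3), against 66.7% (60.7 to 72.3) in 5038 promoters under a narrower ERG-library peak and 63% in all 15843 coding-gene promoters of the table. The median number of CpG dinucleotides was 31.5, 28 and 22 in the same order. The GC box was found in 81.5% of promoters under broad peaks (95% interval 75.1 to 86.9), in 74.2% (72.9 to 75.4) under narrower peaks and in 58.7% of all. The ETS motif CCGGAAGT went the other way. It was found in 12 of the 184, 6.52% (3.42 to 11.1), against 12.4% (11.5 to 13.3) under narrower peaks and 6.23% of all promoters. Its longer form ACCGGAAGT was in 2 of the 184. AGATAA was found in 4.89% (2.26 to 9.08) under broad peaks, 3.55% under narrower ones and 7.499% of all, and TATAAA in 4.35%, 3.87% and 9.52%. The CCAAT box was present in 34.2%, 33.01% and 35.6%. These windows cover the start site alone, which is a small part of a broad peak, and a match is a run of letters and not a bound site.

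Broad peaks made up 677 kb, 4.65% of the length covered by the ERG library on these chromosomes. Their median width was 2228 bp, with quartiles of 2090 and 2416 bp and a maximum of 3428 bp. The Vector library had 15 peaks of that width among 8940, or 0.168%. The narrowest broad peaks were 2002 bp near KCNE4, 2003 bp at PPP3CA and 2004 bp at IRS2, with 48, 67 and 145 fragments at the summit. Just outside, 3 peaks of 1999 bp at SRGN, UQCC4 and RASSF1 had 67, 91 and 173 fragments. The values on both sides of the limit therefore ran into each other, and in the plot of widths the numbers fall smoothly through 2000 bp in both libraries.

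**Figure D1:**
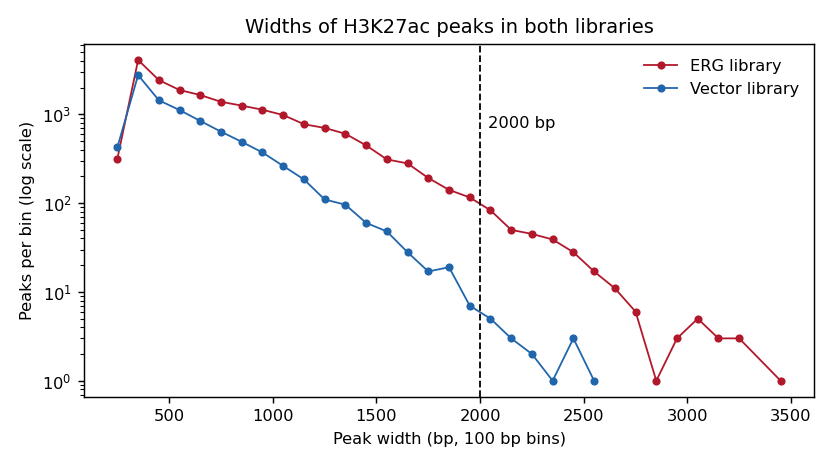
Number of H3K27ac peaks (vertical axis, log scale) by peak width in 100 bp bins (horizontal axis), for the ERG library (red) and the Vector library (blue), chromosomes 1 to 22, X and Y. To the right of the dashed line at 2000 bp lie 295 ERG-library peaks and 15 Vector-library peaks.

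The summit of a broad peak held a median of 96 fragments (range 33 to 393). Fragments were computed from the authors' deposited fold and −log10 p-value. Width said little about height among the broad peaks. Spearman's rho between width and summit fragments was 0.12 over the 295 peaks, which share 1 library and its depth. The local background at a broad peak was high, with a median of 21.9 fragments (5.41 to 72.0), against 5.46 at ERG-library peaks under 500 bp. The deposited fold divides by this background. Its median rose from 3.62 in peaks under 500 bp through 5.10 in peaks of 1000 to under 1500 bp and was 4.23 in broad peaks, although the median summit rose in every width class, through 24, 38, 57, 77 and 96 fragments. The fold and the fragments thus put the width classes in different orders.

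Most broad peaks had a Vector-library counterpart. Of the 295, 259 overlapped a Vector-library peak, 87.8% (95% interval 83.5 to 91.3), where 41.6% of all ERG-library peaks did so. The share rose with width in every class, from 16.4% under 500 bp through 43.7%, 70.2% and 83.8%. A wider peak offers more bases for an overlap and had more fragments, and the part of either in this rise was not tested. Among peaks with 75 to 99 fragments at the summit, 88.6% (79.5 to 94.7) of 79 broad peaks and 82.2% (80.2 to 84.1) of 1489 narrower ones had a counterpart. Below 50 fragments the shares were 60% (38.7 to 78.9) of 25 broad and 24.2% (23.4 to 24.9) of 12490 narrower peaks. That class does not compare like heights. The lowest broad summit held 33 fragments, whereas the median summit of ERG-library peaks under 500 bp held 24.

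The 324 Vector-library peaks under broad peaks covered 45.4% of the broad peaks' length. They were themselves wider and higher than the rest of their list. Their median width was 858.5 bp, against 480 bp in the other 8616 Vector-library peaks, and their median summit held 42 fragments against 26. Of the 259 broad peaks with a counterpart, 258 were wider than their strongest Vector-library peak. The choice of peaks by ERG-library width nearly fixes this count, since 15 of 8940 Vector-library peaks reach 2000 bp, and nothing is read from it. The exception was MYB (chosen after its values were seen), the gene of a transcription factor that keeps blood progenitors dividing. Its ERG-library peak was 2246 bp wide and its Vector-library peak 2462 bp, although its summit held 100 fragments against 43.

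Some broad peaks corresponded to several separate peaks of the Vector library. Of the 295, 63 overlapped 2 or more, 21.4% (16.8 to 26.5), against 1.35% of all ERG-library peaks. The value depends on the peak lists. It was 9.49% when Vector-library peaks under 500 bp apart were joined, and 7.91% with each list limited to its upper 50% by score. In the full lists the share was 11.0% (9.13 to 13.0) at 1500 to under 2000 bp and 2.17% at 1000 to under 1500 bp. In the 61 broad peaks with exactly 2, the gap between the Vector-library peaks had a median of 415 bp and was never under 290 bp. The outer edges of the pair spanned a median of 82.1% of the broad peak. Of the 63, the other 2 overlapped 3 Vector-library peaks.

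**Figure D2:**
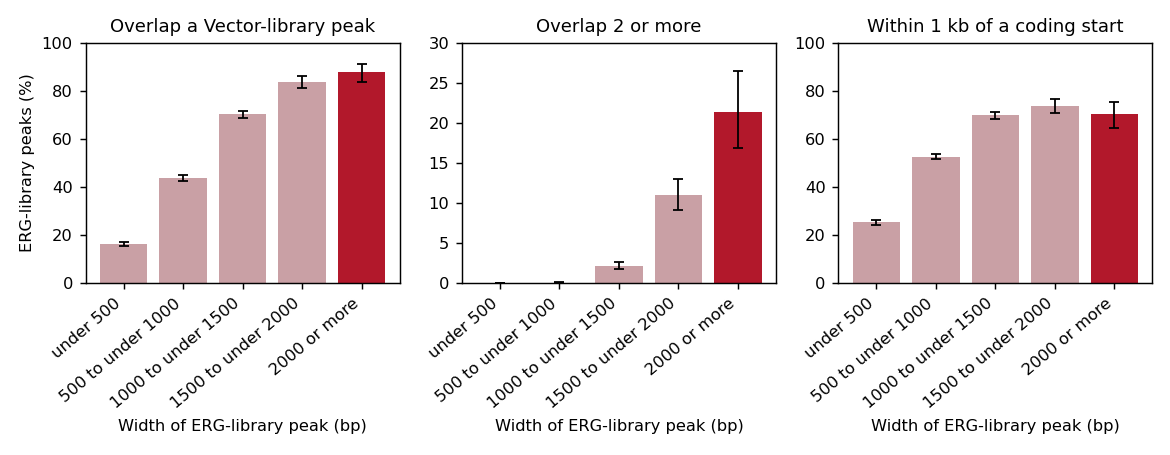
Share of ERG-library peaks (%, vertical axes) in 5 classes of width (horizontal axes) that overlap a Vector-library peak, that overlap 2 or more of them, and that lie within 1 kb of a start of a coding gene. For genes without a listed start, both ends of the record were used. Bars are shares, whiskers exact 95% binomial intervals for counting error, and broad peaks are in dark red: 87.8%, 21.4% and 70.2%.

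FOXO3 shows this best. FOXO3 is a forkhead factor that acts in erythroid maturation and in the response to oxidative stress. It had the widest of all broad peaks, on chromosome 6 from 108559264 to 108562691 (hg38), 3428 bp with 85 fragments at the summit. The Vector library had 3 peaks under it, of 720, 305 and 517 bp, with 35, 32 and 30 fragments. They covered 45.0% of it, so more than 50% of the length had no Vector-library peak.

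The other broad peak over 3 Vector-library peaks lay on chromosome 10 from 72319264 to 72321757, 11.1 kb from DNAJB12, a chaperone gene. At KMT2E, which encodes a chromatin regulator, 1 broad peak of 3017 bp (208 fragments) lay over Vector-library peaks of 524 and 1358 bp (52 and 74 fragments). At MYC, the gene of a growth-promoting transcription factor on chromosome 8, 1 of 2950 bp (110 fragments) lay over peaks of 304 and 885 bp (34 and 40 fragments). ZC3H4, ANP32A and TPM4 at their starts, and single sites 29.4 kb from TCF12 and 16.3 kb from PTP4A2, each had 2 Vector-library peaks under broad peaks of 2725 to 3297 bp.

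**Figure D3:**
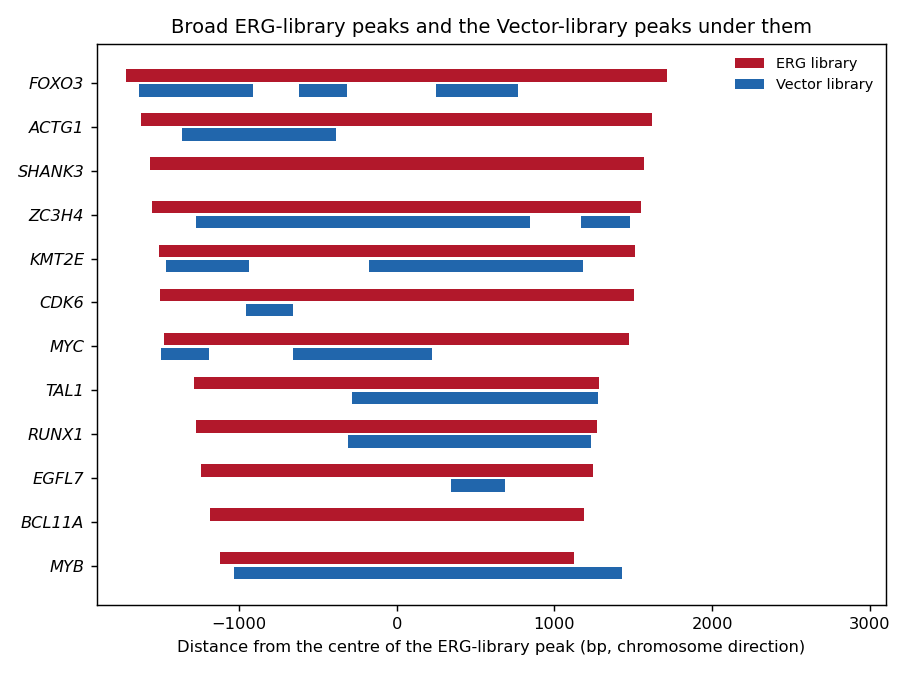
Extent of 12 broad ERG-library peaks (red) and of the Vector-library peaks that overlap them (blue), as distance in bp from the centre of the ERG-library peak (horizontal axis). FOXO3 has 3 Vector-library peaks under it, KMT2E, MYC and ZC3H4 have 2, SHANK3 and BCL11A have none, and at MYB the Vector-library peak is the wider one.

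At the summits, broad peaks held more fragments in the ERG library than the ratio of genome backgrounds. The median ratio, ERG over Vector library, was 2.31 over the 259 broad peaks with a counterpart (quartiles 2.03 to 2.69), and 2.06 (1.67 to 2.49) over 7642 narrower shared peaks. It was 2 or more at 200 of the 259, where 55.8% of all shared ERG-library peaks reached it, and below 1 at none (exact binomial upper bound 1.41%), where 2.06% of all shared peaks were. At like ERG-library summits, broad and narrower medians were closer in the middle classes. They were 2.08 and 2.16 at 50 to under 75 fragments, 2.32 and 2.32 at 75 to under 100, and 2.35 and 2.36 at 100 to under 150. In the open-ended classes, where heights can differ within a class, the medians were 2.14 and 1.74 below 50 fragments and 2.47 and 2.30 from 150 up. Since broad peaks were chosen in the ERG library, nothing is read from these ratios. The local background gave a like ratio, with a median of 2.35. The order of the summits was much the same in both libraries, with Spearman's rho of 0.84 over the 259 broad peaks, which share their libraries and depth.

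The summits of the ERG and Vector libraries lay a median of 87 bp apart at broad peaks, and 63 bp at narrower shared peaks. At 162 of 259 broad peaks, 62.5%, they were within 150 bp. The farthest apart were those of JADE1 at 1903 bp and of SQSTM1, the gene of an autophagy receptor, at 1873 bp (chosen after their values were seen).

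**Figure D4:**
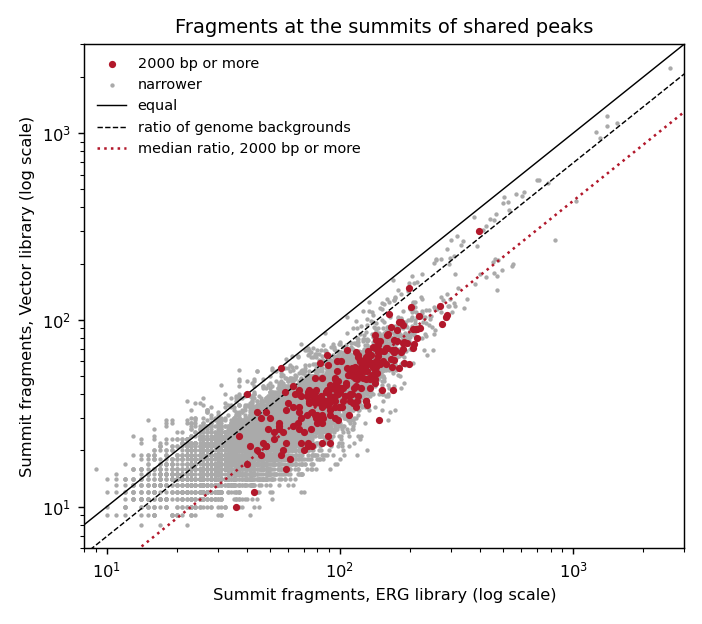
Fragments at the summit in the ERG library (horizontal axis) and in the strongest overlapping Vector-library peak (vertical axis), both on log scales, for 259 broad (red) and 7642 narrower (grey) shared peaks. The solid line marks equal numbers, the dashed line the ratio of genome backgrounds (1.44) and the dotted line the median ratio of broad peaks (2.31), and no broad peak lies above the solid line.

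The highest ratios were at 5 sites. They were 5.07 (95% interval 3.39 to 7.83, counting error only) at a site 9.43 kb from KIAA2013, with 147 fragments in the ERG library against 29 in the Vector library, and 4.14 at TNFAIP8L2 (91 against 22). They were 3.82 at SGMS1, a sphingomyelin synthase gene (84 against 22), and 3.71 at ETV2, an ETS factor of early blood and vessel formation (130 against 35). ERG itself was among them, at 4.02 (2.86 to 5.78), with 169 against 42 fragments. This peak, on chromosome 21 from 38375745 to 38377820, lay inside the ERG gene and away from its listed starts, was 2076 bp wide and was covered by a Vector-library peak over 336 bp. Fragments of the introduced ERG sequence cannot be told apart from those of the resident gene where their sequence is the same.

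The lowest ratios were near 1. Both libraries had 40 fragments at a site 352 kb from ID2, and 56 against 55 at one 449 kb from CWH43. At a site on chromosome 16 178 kb from SHCBP1, which had the highest summit of any broad peak, there were 393 in the ERG library against 298, a ratio of 1.32 (1.13 to 1.54). The next were 1.33 at a site 27.1 kb from LOC124903857 and 1.35 inside ST3GAL1. All 5 lay below the ratio of genome backgrounds of 1.44, and how well sequences map at these sites was not examined. Of the 10 broad peaks farther than 100 kb from a coding gene, 3 were thus among the 5 lowest. Such peaks were 3.39% of broad peaks (1.64 to 6.15) and 12.02% of all ERG-library peaks.

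Broad peaks lay mainly at the starts of coding genes. Within 1 kb of a start were 207 of them, 70.2% (64.6 to 75.3), where 47.4% of all ERG-library peaks were. The share was 69.8% (68.2 to 71.3) at 1000 to under 1500 bp and 73.8% (71.0 to 76.4) at 1500 to under 2000 bp, and the intervals of these shares overlapped that of broad peaks. Of the 207, 177 had a listed start within 1 kb, and the others lay at either end of a gene record without a listed start. Beyond the 207, 38 broad peaks lay elsewhere inside a coding gene and 50 between genes. The broad peaks at starts had a Vector-library counterpart in 93.7% (89.5 to 96.6), those inside genes in 73.7% (56.9 to 86.6) and those between genes in 74% (59.7 to 85.4). A median of 52.4% of the width was covered by Vector-library peaks at starts, 27.5% inside genes and 41.2% between genes. The summit medians were 101 fragments at starts (quartiles 77 to 141), 89 inside genes (56 to 114) and 89 between genes (64.5 to 114). Coverage by place was not compared at like summit heights, and the part of height in these differences was not tested. Of the 88 away from coding starts, 11 lay within 1 kb of a listed start of a long noncoding RNA, 12.5% (6.41 to 21.3), against 4.54% (4.13 to 4.96) of narrower peaks. A wider peak can reach more such starts, and the part of width in this difference was not tested. The noncoding RNAs at these 11 included DLEU2, MIR142HG and CYTOR (chosen after their values were seen).

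The shape around the start site could be followed at 95 broad peaks with 1 listed start of a single coding gene. The ERG-library peak reached a median of 842 bp upstream and 1251 bp downstream of the start, and farther downstream in 58 of the 95, 61.1% (50.5 to 70.9). The Vector-library peaks beneath covered a median of 245 bp upstream and 613 bp downstream. In sum they covered 43.2% of the upstream and 46.0% of the downstream length, and length without a Vector-library peak lay on both sides of the start. At the start site itself 79 of the 95 were covered by an ERG-library peak, 83.2%, and 44 by a Vector-library peak, 46.3%. Vector-library coverage was highest at 200 and 250 bp downstream, with 63 of 95 at both, 66.3%. At 50 bp upstream, ERG-library peaks covered 81.1% and Vector-library peaks 40%. In the plot of coverage around starts, both curves are higher just downstream of the start than upstream of it. At the 4697 starts with a narrower ERG-library peak, ERG-library coverage at the start was 61.1% and Vector-library coverage 20.5%.

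**Figure D5:**
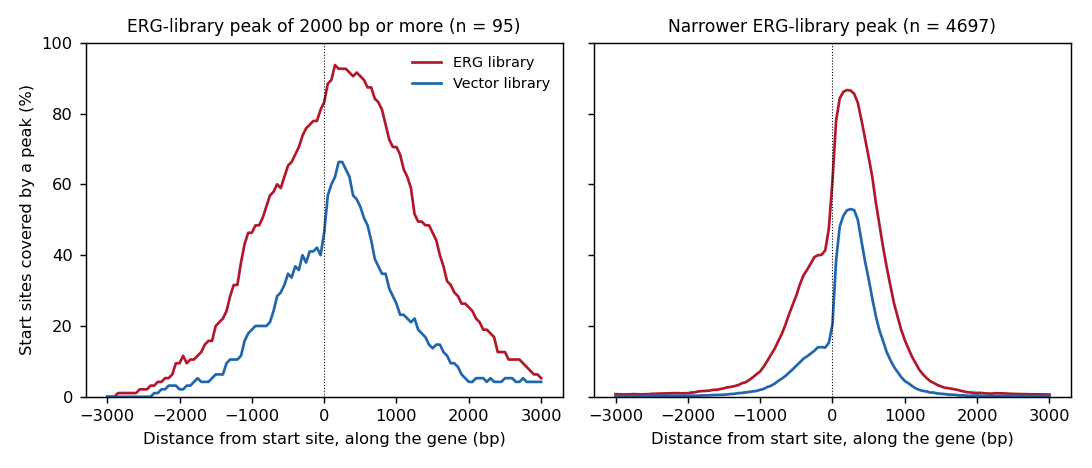
Share of start sites covered by a peak (%, vertical axis) against the distance from the start in bp along the direction of the gene (horizontal axis, negative upstream), in the ERG library (red) and the Vector library (blue), for 95 starts at broad peaks (left) and 4697 at narrower ERG-library peaks (right). At broad peaks ERG-library coverage of the start site is 83.2%, whereas Vector-library coverage is 46.3% there and highest, at 66.3%, 200 and 250 bp downstream.

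Promoters that serve genes in opposite directions were not clearly more frequent. A divergent pair of coding genes lay at 27 of 177 broad peaks with a listed start, 15.3% (10.3 to 21.4), and at 11.9% (11.2 to 12.7) of narrower peaks at starts. More than 1 listed start lay at 44.6% (37.2 to 52.3) and 30.2% (29.2 to 31.3), where a wider peak can hold more of them.

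Counted by gene, 247 of 20037 coding genes had a broad peak within 1 kb of a start, 1.23%. Of these, 223 also had a Vector-library peak there, 90.3%, against 66.8% of the 9321 genes with any ERG-library peak at a start. Of 496 genes named in 18 lists, 31 had a broad peak. None of the lists of liver (20 genes), neuron (20), fibroblast (20) and epithelial genes (18) had a member with one. In that order, only 2, 1, 0 and 1 of their genes had any ERG-library peak at a start. These counts of 0 therefore say little.

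Erythroid regulators had 7 of 25 members with a broad peak (28%, interval 12.1 to 49.4), where all 25 had some ERG-library peak at a start. Of all 9321 genes with an ERG-library peak at a start, 2.65% had a broad one, and of all coding genes 1.23%. The counts of this and the following lists are to be read beside these shares. TAL1, a basic helix-loop-helix factor of blood formation, had 211 fragments in a peak of 2567 bp against 89 in the Vector library, which covered 1560 bp of it. RUNX1, a core factor of definitive blood formation, had 114 fragments over 2543 bp against 36, at chromosome 21 from 34888129 to 34890671. A second broad peak inside the RUNX1 record, from 35046852 to 35049225, had 50 fragments and no Vector-library peak. It was more than 1 kb from any listed coding start, and unlisted start sites were not examined. FOXO3 is described above. ZFPM1, the partner protein of GATA1, had 63 against 44 fragments, and LYL1, a relative of TAL1, 143 against 56. BCL11A, which represses the fetal globin genes, had a peak of 2371 bp with only 37 fragments at its summit, on chromosome 2 from 60549568 to 60551938, and no Vector-library peak. All 6 of these with a counterpart, MYB included, had more fragments in the ERG library. Only 2.06% of all shared ERG-library peaks had a ratio below 1, so nothing is read from this count. The ratios ran from 1.43 at ZFPM1, close to the background ratio of 1.44, to 3.17 at RUNX1. TAL1, RUNX1 and LYL1 were also the 3 of 7 members of the stem cell heptad, a set of blood stem cell factors, with a broad peak. Some ERG-library peak at a start was found at 6 of the 7.

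Among 49 globin, heme and red cell membrane genes 2 had one. TFRC, the transferrin receptor that brings iron into red cell precursors, had 141 fragments over 2011 bp against 83 in the Vector library. SLC40A1, the iron exporter ferroportin, had 64 against 40 over 2452 bp, of which the Vector library covered 84.7%. Of the 49, 32 had an ERG-library peak at a start, so most of these genes with a peak had a narrower one.

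JAK-STAT signalling carries the erythropoietin signal, and 6 of its 27 listed genes had a broad peak (22.2%, 8.62 to 42.3). Some ERG-library peak at a start was found at 25 of the 27. STAT5B and STAT5A, the transcription factors at its end, have peaks that together span 14.45 kb of chromosome 17. STAT5B had 124 fragments over 2035 bp against 54 in the Vector library, and STAT5A 98 over 2117 bp against 47. The feedback inhibitors SOCS2 and SOCS1 had 122 against 61 and 46 against 30 fragments. PTPN6, a phosphatase that shuts the receptor off, had 74 against 36 in a peak of 2587 bp over 2 Vector-library peaks. BCL2L1, the survival gene downstream of STAT5, had 88 against 42. The ratio at these genes lay between 1.53 and 2.30.

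Of 27 ETS genes 4 had a broad peak at a start, where 16 had some ERG-library peak there. ELF2 had 176 fragments against 88 and ERF, an ETS repressor, 101 against 60. SPI1, the myeloid factor PU.1, had 78 against 49, and ETV2 is given above. SPI1 has no listed start in the table, and both ends of its record were used. A second broad peak 11.8 kb from SLC39A13, in the same stretch of chromosome 11, had 144 fragments against 52 over a Vector-library peak of 2141 bp.

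The stem, myeloid and leukaemia list had 5 of 40, where 23 had some ERG-library peak at a start. The 5 are MYC, MYB, SPI1 and the C/EBP factors CEBPB (120 against 63 fragments) and CEBPD (78 against 36). Cell cycle genes had 3 of 28. CDK6, a kinase that drives entry into the cycle, had the least matched of them, with 75 fragments over 3008 bp against 26 in a single Vector-library peak that covered 9.81%. E2F3 had 149 against 68 and the inhibitor CDKN2C 141 against 71, with a second broad peak nearby. RCOR1 and NCOR1, scaffolds of deacetylase corepressor complexes, were 2 of 30 acetyltransferase, bromodomain and corepressor genes, with 142 against 54 and 59 against 33 fragments. Of 18 histone deacetylase genes 17 had an ERG-library peak at a start and 0 a broad one, where 2.65% of all genes with an ERG-library peak at a start had a broad one. A count of 0 is near that share. The broad peak of 2750 bp inside the heme transporter gene SLC48A1, which neighbours HDAC7, had 78 fragments against 41, and 2230 bp of it were covered in the Vector library. The splicing list had SON and HNRNPF (2 of 34), the endothelial list TAL1 and EGFL7 (2 of 26), the immediate early list MYC (1 of 26) and the megakaryocyte list none of 28. Of those 28, 11 had an ERG-library peak at a start, so their count of 0 is also near 2.65%.

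The remaining peaks among the 20 widest were at ACTG1 and TPM4, genes of the actin skeleton, LIMD2, SHANK3, SPN (the leukocyte surface protein CD43), JADE1, ANP32A, SQSTM1, ARID1A (a subunit of SWI/SNF remodelling complexes) and HPCAL1. Their widths ran from 2725 to 3241 bp. At ACTG1, 168 fragments stood over a Vector-library peak of 977 bp with 56, on chromosome 17 from 81512141 to 81515381. Of these 20 widest peaks, SHANK3 was the single member without a Vector-library peak.

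In 36 broad peaks there was no Vector-library peak, 12.2% (8.70 to 16.5), against 58.4% of all ERG-library peaks. At coding starts were 13 of these. Absence from the list means that no peak passed the authors' threshold, not that the site lacked acetylation, and the lowest summit in that list held 8 fragments. The highest of these broad peaks was inside EHD2 with 155 fragments, on chromosome 19 from 47728779 to 47730800. It was followed by SHANK3 (118 fragments over 3135 bp), a site inside CA13 (108) and one 2.31 kb from the eosinophil and mast cell receptor gene SIGLEC8 (94). A site inside MRRF, a gene of mitochondrial translation, and sites 23.3 kb from UBE2F and 15.4 kb from LRBA had 89 each. The start of RASSF2 had 87, and ZNF792 had 79. BCL2L11, the gene of the death protein BIM, was one of the lowest, with 34 fragments over 2055 bp (chosen after its values were seen).

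RASSF2 had a second broad peak within 50 kb, and neither of them had a Vector-library peak. In all, 20 broad peaks stood in 10 pairs less than 50 kb apart. At EGFL7, a gene of endothelial and stem cells, the pair spanned 20.7 kb of chromosome 9. The peaks held 117 and 152 fragments in the ERG library against 34 and 42, and of their 5150 bp the Vector library covered 1057 bp. At CDKN2C the pair was better matched, with 3411 of 4434 bp covered.

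A microRNA gene lay under 1 of the broad peaks between coding genes. MIR142, a microRNA made in blood cells, is at 58331232 to 58331318 on chromosome 17. The peak over it ran from 58330911 to 58333285, 2.12 kb from TSPOAP1, and had 122 fragments against 60 in a Vector-library peak of 1542 bp. Its mature products are shown because the peak covers their own sequence, from RefSeq (GRCh38.p14), 5′ to 3′ with the seed (bases 2 to 8) in capitals. MIR3190 and MIR3191 in the BBC3 peak and MIR6892 in the ZYX peak were the other hairpins under broad peaks.
hsa-miR-142-3p (chr17:58331245-58331267, minus strand): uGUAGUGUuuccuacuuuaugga
hsa-miR-142-5p (chr17:58331283-58331303, minus strand): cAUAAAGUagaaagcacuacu

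Their seeds differ, so these are separate seed groups. The hairpin lies within the part of the peak that the Vector library also covered.

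Seen from the Vector library, 13 of its 15 peaks of 2000 bp or more lay under a broad ERG-library peak, 86.7% (59.5 to 98.3). Of all 8940 Vector-library peaks, 324 did so. Among the 15, 12 were narrower than their ERG-library counterpart. Broad peaks were chosen by their width in the deeper ERG library, so nothing is read from that count. ARID1A was 2890 against 2347 bp wide, VASP 2629 against 2402 bp, YWHAZ 2714 against 2446 bp and SLC40A1 2452 against 2076 bp. ZC3H4 (3102 against 2120 bp), GGA1 (2356 against 2189 bp), the site at SHCBP1 (2256 against 2243 bp) and SLC48A1 were others, and MYB was the wider one in the Vector library. Those without a broad counterpart were the widest of all, 2505 bp on chromosome Y, with CDY1 as the nearest coding gene, and 1 of 2017 bp near LOC124902048. They overlapped 2 ERG-library peaks each, the wider of which were 1633 and 877 bp.

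When the 295 widest peaks of each library were set side by side, chosen after seeing the data, 88 of either list overlapped the other, 29.8% (24.7 to 35.4). The widest in the Vector library began at 1294 bp. All 295 of them overlapped some ERG-library peak. Of all 8940 Vector-library peaks, 324 overlapped a broad peak, so the widest did so more often than the list as a whole. A wider peak offers more bases for an overlap, and the part of width in this was not tested. Most of either list still did not overlap the widest of the other, and 36 of the 295 broad peaks had no Vector-library peak at all.

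Broad peaks occurred on every chromosome except Y, where there were 0 of 93 peaks. They ranged from 0.651% of ERG-library peaks on chromosome 18 to 2.29% on chromosome 6, and the counting intervals of these shares (0.0790 to 2.33 and 1.44 to 3.45) overlapped.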

How the data were processed

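H3K27ac chromatin immunoprecipitation was measured in 1 ERG library and 1 Vector library. Per the labels' protocols, cells were fixed in 1% formaldehyde, micrococcal nuclease cut the chromatin, and each pull-down used 10 µg. Bowtie2, MACS2, deepTools and hg38 are named, without versions, in the submitters' processing notes. Control library, duplicate handling and filters are not given in the sources used here. Each deposited list gives position, summit and the peak caller's score, fold over local background, −log10 p-value and −log10 q-value at the summit. The deposited score equals the −log10 q-value times 10 without decimals, with 9 exceptions for ERG and 1 for Vector. The ERG list goes down to a deposited −log10 q-value of 1.31 and the Vector list to 1.32, which is a q-value of about 0.05.

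From these, fragments at the summit were computed, taking the fold as fragments plus 1 over background plus 1 and the p-value as a Poisson tail. A whole number matched the deposited p-value within a relative error of 0.0001 in 19671 of 19671 ERG-library and 9161 of 9161 Vector-library peaks. The calculation was tested on simulated data. The lowest background was taken as that of the genome. Peaks overlapping by at least 1 bp were matched, and the strongest overlapping Vector-library peak gave the ratio. A start is a RefSeq start site, listed for 15843 of 20037 coding genes (GRCh38.p14, same coordinates as hg38), and both record ends for the other 4194, all chromosome 8 genes included. For promoters, 1 window per gene was used, taking a start under a broad peak first. Shares have exact (Clopper-Pearson) 95% binomial intervals and ratios exact conditional ones, both covering counting error only. No test was possible with 1 library per group. Named peaks are the 20 widest, the 10 over most Vector-library peaks, the 10 with most fragments and no Vector-library peak, the 5 highest and 5 lowest ratios, the 10 widest Vector-library peaks of 2000 bp or more, 3 peaks on either side of the limit, and per gene list at most 4 members with the widest broad peak. ZFPM1, LYL1 and MYB among the erythroid regulators, STAT5B and BCL2L1 in JAK-STAT signalling, SPI1 in the myeloid list, the second peaks at RUNX1, EGFL7 and CDKN2C, the printed promoters and MIR142 were added after their values were seen. Among these, 1 peak and 1 gene list are not reported here. Members and lists were chosen with earlier results of these data known. Python 3.11.15, pandas 2.3.3, numpy 2.4.6 and scipy 1.17.1 were used.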

Additional observations from a re-analysis of the deposited data

Results flagged for a closer look

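Signal outside the chromosomes analysed was found in the ERG library alone at this width. The ERG library had 4 peaks of 2000 bp or more on alternative copies of parts of chromosomes 1, 6, 12 and 15. They were from 2030 to 2386 bp wide with 43 to 60 fragments at the summit, and the Vector library had 0. Each of the 4 overlapped at least 1 Vector-library peak, over 291 to 1284 bp.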

How the results depend on the processing

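Of 33 recomputed values, 19 stayed within the interval of the value reported, or within 1.5 times of a count, and 14 did not. For shares of peaks this was the counting interval. For shares of length it was a binomial interval that took peaks as units, and for the median ratio an interval from the ranked ratios. Those intervals serve as a rough yardstick only. With broad peaks taken from 1500 bp (1335 peaks), 13.3% overlapped 2 or more Vector-library peaks, 21.04% of the Vector-library length lay inside broad peaks against 5.92% as reported, and 1172 genes had one at a start. From 3000 bp (12 peaks) these values were 50%, 0.335% and 9 genes, 91.7% had a Vector-library peak and the median summit ratio was 2.43. Sets of another size give other counts by construction. With each list limited to its upper 50% by score, 68.3% had a Vector-library peak, 7.91% had 2 or more, 37.5% of the length was covered and 7.78% of the Vector-library length lay inside. That setting removes the weaker Vector-library peaks. With Vector-library peaks under 500 bp apart joined, 9.49% still overlapped 2 or more. Counting only peaks over the start site itself, 62.0% were at a start. The other settings kept their values, among them an overlap of at least 50% of the Vector-library peak (87.8% and 21.0%), a window of 2.5 kb (72.5%), the nearest Vector-library summit (ratio 2.33) and leaving out peaks farther than 100 kb from a coding gene (87.7%, 20.7%, 45.1%, 72.6%, 6.20% and 2.32). No paired analysis was possible because each group held 1 library. Depth limits what absence from the Vector list can show.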
